A study of Mus musculus with 32 samples.

Results

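The genes of the cytosolic ribosomal proteins were followed in the mouse kidney over 5 days of cisplatin-induced acute kidney injury (cisplatin-AKI). They were taken by name from the count table, as protein-coding genes called Rpl or Rps with a number and at most an a, l, x or y after it, together with Rpsa, Rplp0, Rplp1 and Rplp2. This gave 80 of 54532 genes, 49 of the large and 31 of the small subunit. Of the 80, 78 passed the filter on low counts, while Rpl10l had 0 counts in each of the 32 libraries and Rpl39l between 0 and 3. Paralogs with longer names, such as Rpl22l1, do not carry such a name and were kept apart.

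Kidney tissue came from wild-type (wt) C57bl/6 mice of 6 to 8 weeks, 4 males and 4 females on each of Day 0, Day 2, Day 3 and Day 5. A single intraperitoneal injection of 20 mg/kg cisplatin, a platinum drug that crosslinks DNA and damages the proximal tubule, preceded the later days, and the study treats Day 0 as healthy. The labels give cisplatin as the treatment of the Day 0 females and no treatment for the Day 0 males, so whether the Day 0 females had been injected was not settled by the labels. The comparisons asked how these genes differed from Day 0 on each later day within a sex, and between the sexes on each day.

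A ribosome consists of a small subunit, which holds the mRNA, and a large subunit, which joins the amino acids, and each protein of a subunit is present once except for those of the stalk. The genes are expressed in every cell and their mRNAs are among the most abundant. Many of them start with a terminal oligopyrimidine (TOP) tract, a C at the cap followed by an unbroken run of C and T, through which mTORC1 and Larp1 set how much of the mRNA is translated. When ribosome assembly is disturbed, free Rpl5 and Rpl11 bind Mdm2, the ubiquitin ligase of p53, and p53 is stabilised.

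The start sites are shown because this tract is the sequence feature that the family is known for. Starts in the RefSeq annotation of GRCm38.p6 were found for 60 of the 80 genes. A C followed by at least 4 pyrimidines (C or T) exactly at a start, on the strand of the gene, was present in 13 of these 60 (21.7%) and in 3.01% of all 27025 genes with a start. Anywhere from 10 bases before to 15 after the start, the shares were 63.3% and 34.4%. The sequence CCGGAAG, searched on both strands over the 300 bases around the start, was present in 25 of the 60 (41.7%) and in 9.93% of all genes. The lines below give 10 bases before the start and 20 from it on, for the 6 genes with a tract at the start that passed the test as lower in males at Day 3, and for 2 genes without a tract at the annotated start, Rpl41 with one of the largest falls of that day and Rpl4 with the smallest difference. Capitals mark the tract.
Rpl14 (chr9:120571507-120571536, + strand): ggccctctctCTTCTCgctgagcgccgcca
Rpl28 (chr7:4792955-4792984, + strand): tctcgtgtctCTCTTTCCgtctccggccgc
Rpl35 (chr2:39005112-39005141, - strand): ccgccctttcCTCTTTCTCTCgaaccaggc
Rplp2 (chr7:141447641-141447670, + strand): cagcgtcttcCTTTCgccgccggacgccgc
Rps18 (chr17:33955646-33955675, - strand): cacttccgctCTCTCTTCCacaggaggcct
Rps21 (chr2:180257369-180257398, + strand): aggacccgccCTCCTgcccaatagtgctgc
Rpl41 (chr10:128549149-128549178, - strand): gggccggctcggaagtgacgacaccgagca
Rpl4 (chr9:64173377-64173406, + strand): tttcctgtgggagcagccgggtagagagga
The tracts of these 6 genes differ in length, with the longest in Rpl35 and the shortest in Rplp2 and Rps21. In all 6 the base just before the annotated start is a pyrimidine too, so a start placed a few bases away would give another tract. No match at an annotated start says only that these letters are not at that position.

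Total counts per library lay between 16502107 and 35961325, and between 3780528 and 34345113 without the genes named mt-, which took 4.49 to 79.8% of the counts and were left out of every scaling here. The highest mt- shares, 77.9 to 79.8%, were in female Day 5 mouse 2 and male Day 5 mice 2, 3 and 4, so the Day 5 males rest on the fewest counts. Xist, a gene of the inactive X, reached 4153 counts beside 387 counts of Y-linked genes in the library labelled male Day 5 mouse 1, and the calls and medians of the Day 5 males are given with and without it. Of the other males, Xist was at 242 and 50 counts in Day 0 mice 4 and 1 and at 260, 89 and 59 in Day 5 mice 2, 3 and 4, with 0 to 7 in the rest. The 4 Day 0 females held 221, 5, 44 and 66 counts of Y-linked genes beside 1398 to 10905 of Xist, whereas all later females held 0 of the former, and the part of this in the results was not tested. All 8 proximal tubule markers were detected in every group. The injury gene Lcn2 (NGAL) and the p53 target Cdkn1a were higher than at Day 0 in males at Day 3, by 3.52 and 3.07 on the log2 scale (adjusted p = 0.0159 and 0.00385, Benjamini-Hochberg adjusted over all genes, edgeR's quasi-likelihood test), while Cdkn1a in male Day 2 mouse 1 (14.3 CPM, counts per TMM-scaled library total without mt- genes) and female Day 3 mouse 2 (31.0 CPM) was near the Day 0 range of 10.2 to 27.4. The injury gene Havcr1 (KIM-1) was not called in males at Day 3 (1.14, adjusted p = 0.148, edgeR).

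The 80 genes together took 1.83 to 6.77% of the counts without mt- genes. In the male Day 0 mice the share was 2.31, 2.41, 5.08 and 2.33%, so mouse 3 stood apart from the other 3. At Day 2 it was 1.86, 2.30, 1.90 and 2.76%, and at Day 3 it was 2.10, 1.90, 1.88 and 1.83%, below every Day 0 male. At Day 5 it was 2.76, 3.48, 4.32 and 3.32%, above every Day 0 male except mouse 3. The group means ± SD (n = 4 each) were 3.03 ± 1.37%, 2.21 ± 0.42%, 1.93 ± 0.119% and 3.47 ± 0.645%. The Day 0 SD comes from mouse 3, as the other 3 males of that day spanned 2.31 to 2.41%.

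The female share was 4.11, 5.35, 6.77 and 2.12% at Day 0, the widest spread of the 8 groups. It was 2.57, 2.53, 3.06 and 2.42% at Day 2, then 2.73, 2.00, 2.64 and 2.98% at Day 3, and 3.50, 2.96, 4.35 and 2.80% at Day 5. The group means ± SD were 4.59 ± 1.97%, 2.65 ± 0.284%, 2.59 ± 0.417% and 3.4 ± 0.699% (n = 4 each). Female Day 0 mouse 4 lay within the range of the later days, so in females the Day 0 and the later groups overlapped. These shares are a description without a test. In bulk kidney RNA, fewer cells of a type and less RNA per cell cannot be told apart.

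The 2 subunits moved together. The ratio of large-subunit to small-subunit counts stayed between 1.46 and 1.59 over the 32 libraries. What differed between libraries was the balance of short and long members: the counts of the 40 members with the shorter coding sequences, divided by those of the 40 with the longer, were 0.689, 0.7, 1.03 and 0.754 in the Day 0 males and 0.814, 0.922, 1.14 and 0.755 in the Day 0 females. At Day 3 the same ratio was 0.647 to 0.661 in males and 0.639 to 0.689 in females. Mouse 3 of Day 0 thus had both the highest share and the highest short-to-long ratio in each sex. In these 2 libraries Malat1, a long nuclear RNA, was at 52.2 and 65.7 CPM, against 313 to 680 CPM in the other Day 0 libraries. At Day 3 Malat1 was at 1760 to 2230 CPM in males and at 734 to 1250 CPM in females, above every Day 0 library of the same sex. Gm23935, a short gene that the deposited table types as a miRNA, was at 1430 to 4330 CPM in males and 1940 to 4130 CPM in females at Day 0. It was at 4960 to 10500 and 6390 to 13900 CPM at Day 2, 4130 to 6190 and 5040 to 7280 CPM at Day 3, and 8760 to 24900 and 6230 to 19900 CPM at Day 5, so only the Day 3 males overlapped with Day 0 of their sex. Other protein-coding genes with a coding sequence of at most 600 nt, 3530 in number, took 25.4 and 22.7% of their counts, against 11.7 to 20.4% in the other Day 0 libraries and 11.4 to 12.9% at Day 3. The part of these differences in the results below was not tested.

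**Figure D1:**
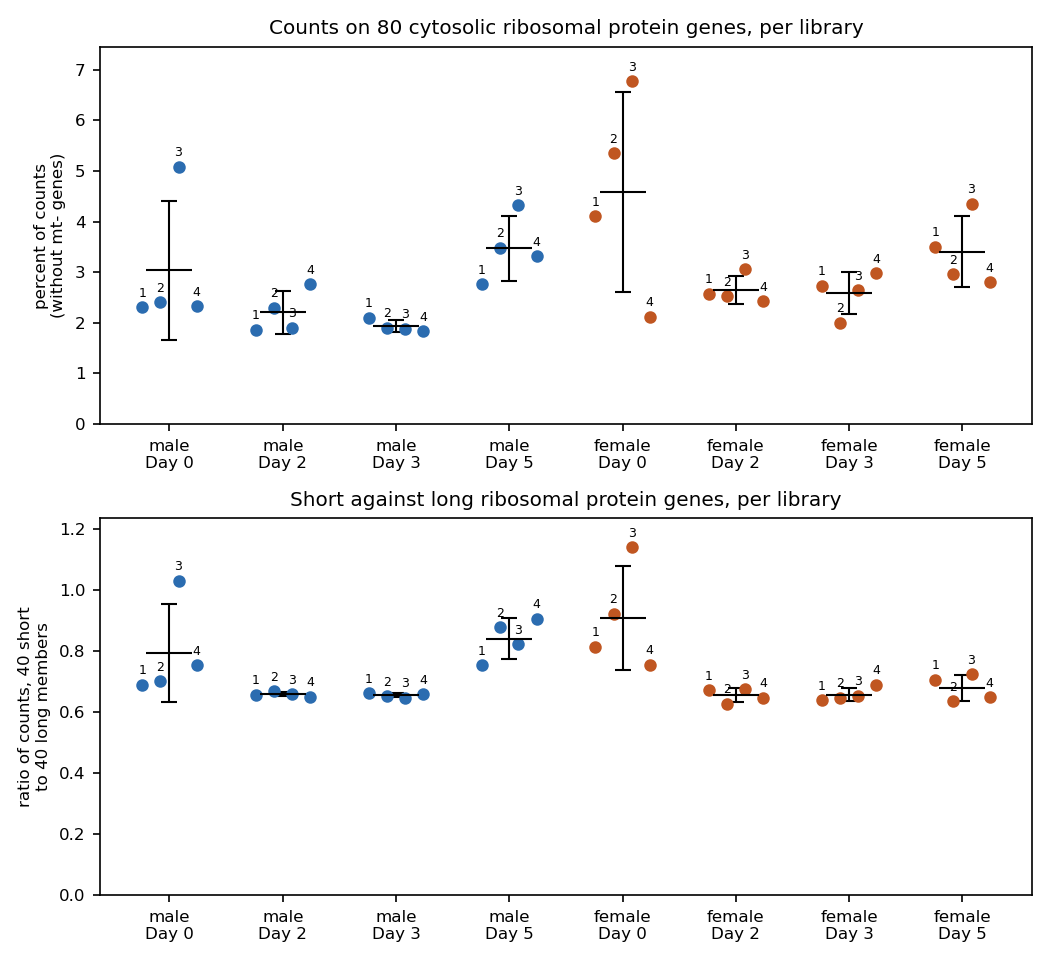
Top: percent of the counts without mt- genes that fell on the 80 ribosomal protein genes, per library. Bottom: counts of the 40 short members divided by counts of the 40 long members. Points are single mice with their number, bars the mean ± SD of 4 mice, by sex and day. Mouse 3 of Day 0 is the highest of its group in both panels and both sexes, and the male Day 3 mice lie close together at 1.83 to 2.10%.

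Levels of different genes were compared only per kb of gene length, as CPM divided by the length in the deposited table. Over the 8 Day 0 libraries, Rplp1, an acidic protein of the stalk that recruits elongation factors, was the highest at 4450 ± 3830 CPM per kb (mean ± SD, n = 8). Rpl41, the smallest ribosomal protein, followed at 1950 ± 1870, Rps15, a protein of the small-subunit head, at 1920 ± 1440 and Rpl36 at 1760 ± 1310. Their SDs are nearly as large as the means, but they hold the spread between libraries that these genes share. The order among these 4 was not compared within libraries. At the low end stood Rpl13a at 14.9 ± 6.63, Rpl24 at 2.47 ± 1.85, Rpl3l at 2.18 ± 1.15 and Rps10 at 0.955 ± 0.574 CPM per kb. Rpl10l and Rpl39l, retained copies that are known from the testis, had no counts at Day 0, and a count of 0 allows up to 3 counts in a library. For Rpl13a, Rpl24 and Rps10, which code for proteins of every ribosome, these levels are uncertain, since near-identical processed pseudogenes can take or void their reads. The 298 table rows named as ribosomal protein pseudogenes (-ps) held 0.0745 to 0.237% of the counts without mt- genes.

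In males at Day 3, the ribosomal protein genes were lower than at Day 0 as a family. Every one of the 78 members tested had a log2 fold change below 0, against 49.7% of all 15890 genes tested. The members share the same libraries and moved together, so their signs are not separate observations, here and in the comparisons below. The median of the members was -1.03, with quartiles of -1.22 and -0.77 and a range from -2.18 (Rpl21) to -0.11 (Rpl4), while the median of all genes was 0. At an adjusted p under 0.05, 26 members fell (33.3% of those tested) and 0 rose, beside 14% of all genes that fell and 10.7% that rose. The groups did not overlap for 61 members, all lower at Day 3, beside 17.3% of all genes. The 26 comprised 15 of the 47 large-subunit and 11 of the 31 small-subunit members tested. Asked also to differ by over 1.5 on the log2 scale, 7 of them were left, beside 3.8% of all genes in either direction.

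How many members were called at Day 3 depended on single mice. Without male Day 0 mouse 3, the mouse with the high share, 61 members fell beside 20.3% of all genes, and the median was smaller in size at -0.50. Without Day 0 mouse 4 it was 53 members and without mouse 2 it was 13, beside 18.7 and 8.81% of all genes, with medians of -1.15 in each case. Without Day 0 mouse 1 the median was -1.17, the lowest of all alternatives. Without Day 3 mouse 1, 2, 3 or 4, the counts were 2, 1, 0 and 1, beside 1.71 to 3.67% of all genes, and the medians stayed between -1.08 and -0.98. Thus the sign of the family held in each of these fits and its size dropped without Day 0 mouse 3. In the fits with counts given, the number of calls followed the number of calls over all genes.

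**Figure D2:**
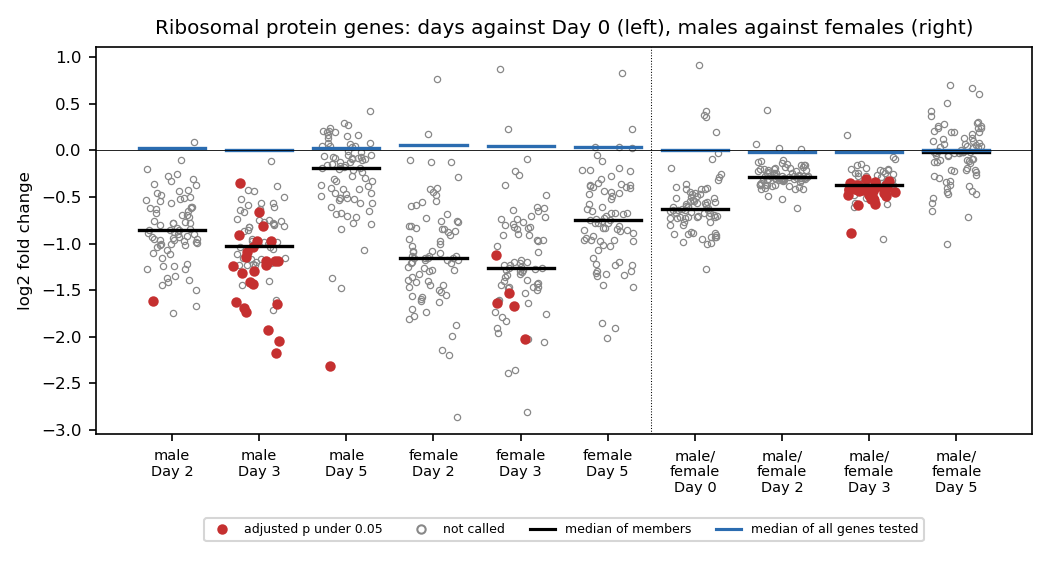
Log2 fold change of each ribosomal protein gene in the 6 comparisons of a day with Day 0 and the 4 comparisons of males with females. Red points passed an adjusted p under 0.05 (edgeR), the black line is the median of the members and the blue line that of all genes tested. At Day 3 all 78 members of the males lie below 0, and the medians are -1.03 in males and -1.26 in females.

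The stalk of the large subunit, made of Rplp0 and of pairs of Rplp1 and Rplp2, is where the elongation factors dock. Rplp1 was at 808, 838, 3620 and 773 CPM in the Day 0 males and at 523, 485, 473 and 454 CPM at Day 3. Every Day 3 mouse was below every Day 0 mouse, and Day 0 mouse 3 was over 4 times as high as the other 3. The fit gave a log2 fold change of -1.69 ± 0.54 (SE; adjusted p = 0.0493, edgeR's quasi-likelihood test), and -0.74 without that mouse (adjusted p = 0.000518). Rplp2 was at 295, 318, 1110 and 311 CPM and then at 182, 173, 162 and 165 CPM, again without overlap, with a log2 fold change of -1.63 ± 0.46 (adjusted p = 0.0358, edgeR) and -0.86 without mouse 3. Rplp0, the base of the stalk and a common reference gene in qPCR, was at 1020, 1030, 1900 and 907 CPM and then at 924, 790, 805 and 781 CPM. Its groups overlapped at Day 3 mouse 1, and its log2 fold change of -0.59 ± 0.26 did not pass (adjusted p = 0.122, edgeR) and was -0.26 without mouse 3.

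Of the small subunit, Rpsa, the laminin receptor homolog that is needed for maturation of the subunit, was at 877, 961, 3490 and 926 CPM at Day 0 and at 550, 520, 488 and 504 CPM at Day 3. The groups did not overlap, and the log2 fold change was -1.65 ± 0.48 (adjusted p = 0.0384, edgeR), or -0.84 without mouse 3. Rps2 (chr17:24718116-24721929), a protein near the mRNA entry, was at 875, 973, 1420 and 906 CPM and then at 585, 537, 514 and 538 CPM. Every Day 3 mouse was below every Day 0 mouse, and its log2 fold change of -0.97 ± 0.20 had the lowest adjusted p of the family (0.0139, edgeR). Rps15 fell from 434, 492, 2070 and 626 CPM to 316, 274, 273 and 258 CPM, by 1.74 on the log2 scale (SE 0.51, adjusted p = 0.0391, edgeR), or by 0.89 without Day 0 mouse 3. Rps27a, which is made as a fusion with ubiquitin, was at 307, 314, 782 and 188 CPM and then at 90.4, 183, 78.9 and 77.4 CPM, where Day 3 mouse 2 stood just under the lowest Day 0 mouse. Its log2 fold change was -1.93 ± 0.49 (adjusted p = 0.0258, edgeR) and -1.33 without Day 0 mouse 3.

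The largest falls of the family were in Rpl21 and Rpl41, both of the large subunit. Rpl21 (chr5:146832890-146837032) was at 48.6, 91, 381 and 59.4 CPM at Day 0 and at 33.7, 29.2, 42 and 28.4 CPM at Day 3, with a log2 fold change of -2.18 ± 0.66 (adjusted p = 0.0427, edgeR). Rpl41 (chr10:128548114-128549305) went from 759, 816, 4390 and 657 CPM to 431, 410, 403 and 420 CPM, with -2.05 ± 0.64 (adjusted p = 0.0468, edgeR). In both genes the groups were apart, yet most of the difference in means came from Day 0 mouse 3, and without it the log2 fold changes were -1.0 and -0.84. At the other end stood Rpl4, a large-subunit protein near the exit tunnel, at 724, 748, 769 and 635 CPM and then at 715, 675, 667 and 646 CPM. Its level differed by -0.11 ± 0.13 on the log2 scale (adjusted p = 0.531, edgeR), and Day 0 mouse 3 did not stand apart for it.

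**Figure D3:**
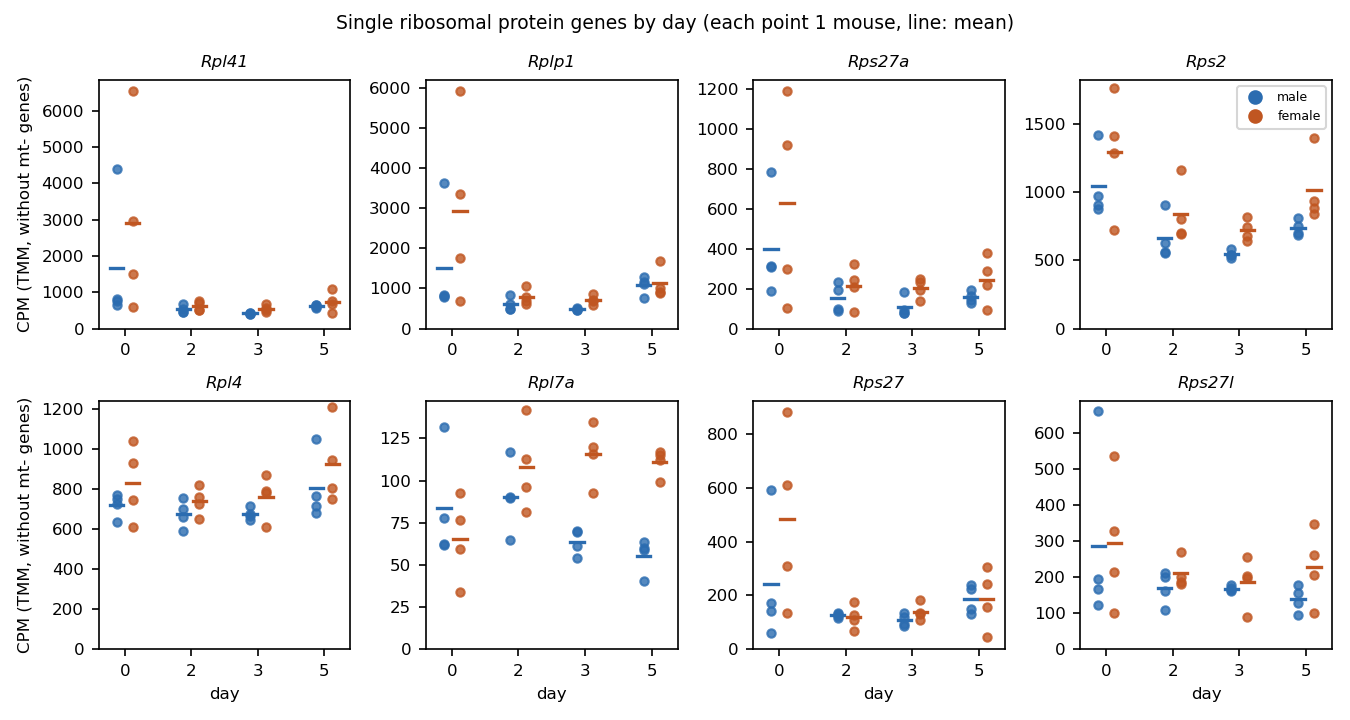
CPM (TMM-scaled, without mt- genes) of 8 ribosomal protein genes by sex and day. Points are single mice and lines the mean of 4 mice. The means of Rpl41, Rplp1 and Rps27a are lower at Day 3 than at Day 0, Rpl4 overlaps between these days in males (635 to 769 and 646 to 715 CPM), and Rpl7a in females is higher at Day 3 (92.5 to 135 CPM) than at Day 0 (33.7 to 92.4 CPM).

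Rpl13a, a large-subunit protein with a role in the silencing of inflammatory mRNAs, and Rps18 of the small-subunit head serve as reference genes in qPCR together with Rplp0. Rpl13a was at 23.7, 27.4, 61.7 and 20.8 CPM in the Day 0 males and at 11.4, 13.5, 11.7 and 15.2 CPM at Day 3, a fall of 1.41 on the log2 scale (SE 0.36, adjusted p = 0.0259, edgeR). Rps18 was at 398, 436, 1210 and 445 CPM and then at 299, 290, 265 and 269 CPM, a fall of 1.19 (SE 0.38, adjusted p = 0.0487, edgeR). For both genes the Day 3 mice lay below all Day 0 mice, so 2 of these 3 reference genes passed the test in males at Day 3. The level of Rpl13a is uncertain, as given above, since pseudogenes can take or void its reads. The falls were 0.89 and 0.61 without Day 0 mouse 3.

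Rpl5 and Rpl11, the proteins that bind Mdm2, were not called. Rpl11 was at 389, 412, 1170 and 383 CPM and then at 291, 272, 269 and 249 CPM, without overlap (log2 fold change -1.17 ± 0.39, adjusted p = 0.0575, edgeR). It was called without Day 0 mouse 3, at -0.55 (adjusted p = 0.00158, edgeR). Rpl5 was at 492, 470, 1050 and 304 CPM and then at 428, 398, 388 and 391 CPM, with overlap (-0.57 ± 0.35, adjusted p = 0.254, edgeR, and -0.07 once mouse 3 was left out). Mdm2 itself rose by 1.33 ± 0.17 on the log2 scale (adjusted p = 0.00469, edgeR), from a mean of 41.2 to 105 CPM. The 4 X-linked members did not pass either, with log2 fold changes at Day 3 of -1.40 (Rpl39, adjusted p = 0.0667, edgeR), -1.06 (Rpl36a), -0.57 (Rpl10) and -0.50 (Rps4x), although the groups of all but Rps4x were apart. Rpl39, Rpl36a and Rpl10 were called without Day 0 mouse 3, at -0.55, -0.42 and -0.32 (adjusted p = 0.0038, 0.0243 and 0.0283, edgeR), while Rps4x was then at -0.07.

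Several members have a paralog that replaces them in some tissues or is induced by p53. Rps27l, the p53-inducible partner of Rps27, was at 168, 195, 661 and 122 CPM in the Day 0 males and at 178, 163, 169 and 161 CPM at Day 3. The Day 3 mice lay within the Day 0 range (-0.82 ± 0.50, adjusted p = 0.25, edgeR, and 0.05 without Day 0 mouse 3), on the day that the p53 target Cdkn1a rose. Rps27 differed by -1.22 ± 0.62 (adjusted p = 0.171, edgeR), or by -0.22 once mouse 3 was left out. Rpl22l1, the partner of Rpl22, fell by 1.49 (adjusted p = 0.0319, edgeR), and Rpl7l1, the partner of Rpl7, by 0.48 (adjusted p = 0.0137). Rpl22 and Rpl7 themselves had log2 fold changes of -0.74 and -0.75 that did not pass (adjusted p = 0.0928 and 0.114, edgeR), and without Day 0 mouse 3 Rpl22 was called at -0.32 (adjusted p = 0.0122), Rpl7 was at -0.30 and Rpl22l1 at -0.89.

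Rpl3l (chr17:24727820-24736143), the striated-muscle paralog of Rpl3, was a member that fell at all 3 later days in males. It was at 3.45, 5.65, 5.07 and 4.58 CPM at Day 0, at 1.42, 1.12, 1.68 and 1.92 CPM at Day 2, at 3.3, 2.01, 1.93 and 1.4 CPM at Day 3, and at 1.01, 1.44, 0.461 and 0.81 CPM at Day 5. No later male reached the lowest Day 0 male, and here Day 0 mouse 3 did not stand apart. The log2 fold changes were -1.62 ± 0.31, -1.14 ± 0.32 and -2.31 ± 0.46 (adjusted p = 0.0393, 0.0353 and 0.0139, edgeR), all 3 against the same Day 0 mice, and -2.38 at Day 5 without the library labelled mouse 1. With 1 library left out at a time, the call ended in 6 of 8 fits at Day 2, 4 of 8 at Day 3 and 1 of 8 at Day 5. Rpl3 had -0.33, -0.38 and -0.23 on the same days, or -0.03, -0.07 and 0.09 with Day 0 mouse 3 left out, and did not pass. The summed CPM of 4 skeletal muscle genes in males was 0.488 to 2.39 at Day 0, 0.224 to 0.909 at Day 2, 0.171 to 17.2 at Day 3 and 1.01 to 3.2 at Day 5, and their part in the level of Rpl3l was not tested. In females Rpl3l was at 2.43, 1.42, 5.41 and 0.697 CPM at Day 0, overlapped with every later day, and was not called.

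**Figure D4:**
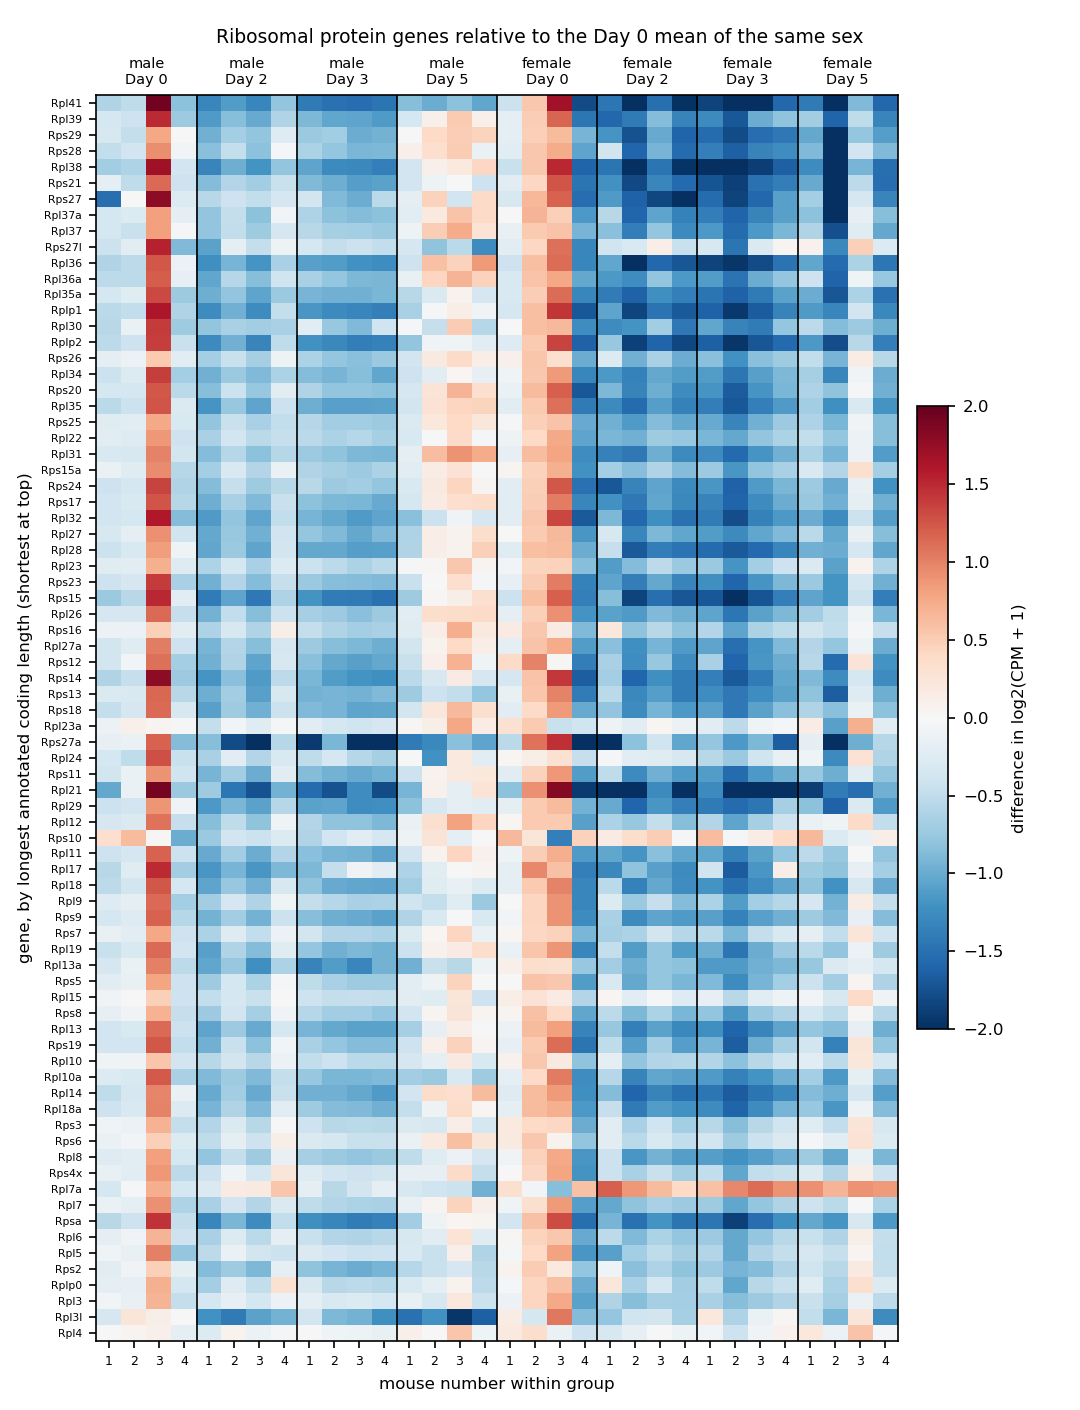
Log2(CPM + 1) of the 78 members in each of the 32 libraries, minus the Day 0 mean of the same sex, with members ordered by coding length from the shortest at the top. Colours saturate at 2 on the log2 scale in either direction. Mouse 3 of Day 0 is high in both sexes for most members, female Day 0 mouse 4 is low, and the Day 2 and Day 3 libraries are low for most members, while Rpl7a is red in the later females.

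Markers of other cells moved with the male Day 3 result. The 5 erythroid markers (hemoglobin genes and Alas2) summed to 596 to 2870 CPM at Day 0 and to 1.11 to 3.07 CPM at Day 3. All 5 fell, and Hba-a2 was at 0 in all 4 Day 3 males. Of the 5 adipocyte markers 4 fell, with sums of 628 to 3130 and 317 to 418 CPM, and of 10 leukocyte markers tested 2 fell, with sums of 409 to 564 and 193 to 220 CPM. Of single markers of other lists, Atp6v1g3 of the collecting duct (-1.11, adjusted p = 0.02, edgeR), the hepatocyte gene Ttr (-1.69, 0.0164) and Cela1, the exocrine pancreas marker tested (-1.74, 0.0107), fell too. The other collecting duct markers were at -0.24 (Aqp2), 0.25 (Aqp3) and -0.03 (Scnn1b) and were not called. Nor were the other hepatocyte markers, at -0.17 (Alb), 0.73 (Apoa1) and -0.11 (Serpina1a). The sums of the 8 proximal tubule markers overlapped, at 11200 to 13300 and 9410 to 13300 CPM, and 1 of them, Cubn, rose (0.62, adjusted p = 0.0303, edgeR). Malat1 was higher at Day 3 without overlap, as given above. The part of these values in the level of the ribosomal protein genes was not tested.

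At Day 2 in males, 1 member fell, Rpl3l, and 0 rose, beside 1.43% of all 16030 genes that fell and 1.78% that rose. The median log2 fold change of the 78 members was -0.86 (quartiles -1.02 and -0.61), and 77 lay below 0, against 48.3% of all genes. The groups did not overlap for 11 members, all lower, beside 11.9% of all genes. Rpl41 was at 465, 533, 465 and 670 CPM, where mouse 4 reached into the Day 0 range, and its log2 fold change of -1.67 ± 0.63 did not pass (adjusted p = 0.12, edgeR) and was -0.48 with Day 0 mouse 3 left out. Without Day 0 mouse 3 the median was -0.30, and 3 members fell beside 7.49% of all genes. DESeq2's Wald test called 12 members lower, beside 10.1% of all genes, and limma voom with quality weights 57, beside 23.5% of all genes and with a median of -0.41. The erythroid markers summed to 10.5 to 226 CPM at Day 2, below every Day 0 male, though none of the 5 passed (adjusted p = 0.0569 to 0.144, edgeR). Ttr was the cell marker called (-1.77, adjusted p = 0.0493, edgeR). The other hepatocyte markers, Alb at 1.58, Apoa1 at 0.95 and Serpina1a at -0.04, were not called. Malat1 was at 877 to 1990 CPM, above every Day 0 male, as was Gm23935, and the part of these values was not tested.

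At Day 5 in males the family lay closer to Day 0. The median log2 fold change was -0.18 (quartiles -0.50 and -0.01), 59 members lay below 0 and 19 above, and Rpl3l alone was called, beside 10.3% of all 15441 genes that fell and 7.94% that rose. The groups were apart for 3 members, Rpl3l, Rpl41 and Rps2, beside 14.4% of all genes that were lower without overlap. The sign of the family was not settled: without Day 0 mouse 3 the median was 0.36, with 2 members higher and 1 lower, beside 8.98 and 10.2% of all genes. With the library labelled mouse 1 of Day 5 left out it was -0.14, with 1 member lower and 0 higher, beside 14.9 and 9.93%. Rpl41 was still lower without overlap, at 638, 581, 654 and 563 CPM, with each Day 5 mouse below each Day 0 mouse (-1.48 ± 0.63, adjusted p = 0.128, edgeR). Its value was -0.26 with Day 0 mouse 3 left out and -1.52 with the library labelled Day 5 mouse 1 left out. In the same libraries the erythroid markers summed to 285 to 7630 CPM, the adipocyte markers to 1180 to 6360 CPM and the proximal tubule markers to 821 to 6230 CPM. Of the markers tested, S100a8 and S100a9 of the leukocyte list, Alas2, 2 collecting duct and 3 adrenal cortex markers rose, while 2 proximal tubule markers, Csf1r, Ttr and Cela1 fell. With the library labelled mouse 1 left out, all of these stayed called except Cyp21a1 and Cyp11b1 of the adrenal cortex, 8 of 8 proximal tubule markers were lower, and 4 of 11 leukocyte markers were higher. The part of these values in the levels was not tested.

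In females at Day 3 the median of the 78 members was -1.26 on the log2 scale (quartiles -1.52 and -0.82), against 0.05 for all 16873 genes tested, and 76 lay below 0. At an adjusted p under 0.05, 5 members fell (Rpl36, Rps29, Rpl28, Rps28 and Rpl13a) and 0 rose, beside 3.37% of all genes that fell and 1.22% that rose. At an unadjusted p under 0.05, 60 members were lower, beside 18.6% of all genes. The groups did not overlap for 7 lower members, beside 10.9% of all genes, and for 1 higher member, Rpl7a. With a log2 fold change over 1.5 as well, 4 were left, beside 2.18% of all genes.

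Rpl36 of the large subunit was at 561, 1130, 1620 and 300 CPM in the Day 0 females and at 205, 193, 215 and 268 CPM at Day 3. Each Day 3 female was below each Day 0 female, and mouse 4 was the lowest of Day 0 (-2.02 ± 0.48, adjusted p = 0.0499, edgeR). Rps29, a small zinc-binding protein of the small subunit, was at 268, 423, 470 and 159 CPM and then at 104, 86.8, 105 and 112 CPM (-1.67 ± 0.33, adjusted p = 0.0488, edgeR). Rpl28 was at 761, 1360, 1390 and 450 CPM and then at 307, 278, 304 and 364 CPM (-1.64 ± 0.36, adjusted p = 0.0496, edgeR). Mouse 4 was the lowest of the Day 0 females in these genes too, and the groups stayed apart. Rps28 had -1.53 ± 0.36 and Rpl13a -1.12 ± 0.26 (adjusted p = 0.0499 for each, edgeR), just under the threshold. The limit on the reads of Rpl13a holds here too.

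Several members with larger differences were not called in females. Rpl21 was at 126, 424, 800 and 58.6 CPM at Day 0 and at 91.7, 24.9, 41.4 and 41.2 CPM at Day 3 (-2.81 ± 0.79, adjusted p = 0.0613, edgeR), and Rpl41 at 1510, 2950, 6540 and 585 CPM and then at 562, 449, 498 and 685 CPM (-2.39 ± 0.65, adjusted p = 0.0567, edgeR). In both genes Day 0 mouse 4 lay within the Day 3 range, and with it left out both were called (-3.17 and -2.74). With Day 0 mouse 3 left out Rpl41 was at -1.57. Rplp1 was at 1750, 3360, 5920 and 678 CPM and then at 715, 575, 695 and 872 CPM, with the same overlap (-2.02 ± 0.58, adjusted p = 0.063, edgeR).

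The female calls turned on Day 0 mouse 4, the Day 0 female with the low share. Without it, 69 members were lower and 1 higher at Day 3, beside 20.4 and 18.7% of all genes, with a median of -1.56. Without any other single library, 0 members passed at Day 3, beside 0 to 1.81% of all genes that fell, and the medians lay between -1.37 and -0.93, the latter without Day 0 mouse 3. In 1 fit over all 8 groups 62 members were lower and 1 higher, beside 14.3 and 7.58% of all genes, and DESeq2's Wald test gave 54 and 1, beside 14 and 7.46%. The 5 erythroid markers summed to 590 to 3570 CPM in the Day 0 females and to 4.22 to 110 CPM at Day 3, and all 5 fell. Of 10 leukocyte markers tested 2 fell (Cd74 and Lyz2, sums of 303 to 661 and 151 to 280 CPM), and of the others Fabp4 of 5 adipocyte, Atp6v1g3 of 4 collecting duct and Cela1, the exocrine pancreas marker tested, fell. The proximal tubule markers summed to 9010 to 14600 CPM at Day 0 and to 4490 to 10500 CPM at Day 3, with medians of 10100 and 5480 CPM, and 0 of 8 were called. The hepatocyte markers summed to 70.6 to 13400 CPM at Day 0 and 67.5 to 489 CPM at Day 3, and the adrenal cortex markers to 4.21 to 333 and 27.2 to 2120 CPM, with 0 of 4 called in each list. At Day 5 the adrenal cortex markers were at 535 to 1390 CPM. Malat1 was higher at Day 3, as given above. The part of these values in the result was not tested.

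At Day 2 in females the median was -1.15 (quartiles -1.43 and -0.81), and 76 of 78 members lay below 0. No member passed (0 of 78), beside 0.98% of all 16641 genes that fell and 0.769% that rose. At an unadjusted p under 0.05, 59 were lower, beside 14.7% of all genes, and 1 was higher, beside 10.6%. DESeq2's Wald test called 45 lower, beside 8.79% of all genes, and limma voom 69 lower and 1 higher, beside 23.6 and 27.1%. The groups were apart for 2 members, Rps29 and Rpl29, beside 7.37% of all genes that were lower without overlap. Without Day 0 mouse 4, 67 fell and 1 rose, beside 14.4% of all genes in each direction. The 5 erythroid markers all fell at Day 2, to sums of 9.63 to 64.7 CPM, and so did Lyz2 and Fabp4. The adipocyte markers summed to 444 to 810 CPM, below every Day 0 female, while Malat1 at 492 to 1340 CPM and the proximal tubule markers at 4750 to 15300 CPM overlapped with Day 0. Gm23935 was above every Day 0 female. The part of these values was not tested.

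At Day 5 in females the median was -0.75 (quartiles -0.97 and -0.40), or -0.43 without Day 0 mouse 3 and -1.05 without Day 0 mouse 4, and 0 members passed, beside 0.0795% of all 16358 genes that fell and 0.196% that rose. At an unadjusted p under 0.05, 17 were lower, beside 9.71% of all genes, and 1 was higher, beside 5.71%. DESeq2 called 4 lower (2.87% of all genes) and limma voom 11 lower and 1 higher (8.99 and 9.11%). Without Day 0 mouse 4, 23 fell and 1 rose at Day 5, beside 7.42 and 4.74% of all genes. All 3 female comparisons share the Day 0 mice, and the medians of -1.15, -1.26 and -0.75 stand on the same 4 libraries.

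Rpl7a (chr2:26910764-26913318), a large-subunit protein, went against the family in females. Per kb of gene length it was low, at 41.9 ± 16.2 CPM over the Day 0 libraries (mean ± SD), next above Rpl13a at 14.9. Whether pseudogenes took or voided its reads, as can happen for Rpl13a, was not tested, so its level is uncertain too. Rpl7a was at 76.8, 59.4, 33.7 and 92.4 CPM at Day 0 and at 142, 113, 96.1 and 81.6 CPM at Day 2. It was at 92.5, 120, 135 and 116 CPM at Day 3 and at 117, 99.1, 115 and 112 CPM at Day 5. Mouse 3 of Day 0, the highest female for most members, was the lowest for Rpl7a, and every female of Day 3 and Day 5 was above every Day 0 female, mouse 1 of Day 3 by a small margin. No overlap in either direction was seen in 19.2% of all genes at Day 3 and in 8.29% at Day 5. The log2 fold changes were 0.77 ± 0.30, 0.87 ± 0.28 and 0.83 ± 0.28 and did not pass (adjusted p = 0.144, 0.0792 and 0.224, edgeR). In 1 fit over all 8 groups the Day 3 value was 0.82 (adjusted p = 0.0183), and without Day 0 mouse 4 it was 1.05 (adjusted p = 0.0147). The Day 3 males were at 70.2, 54, 61.3 and 69.2 CPM, within the Day 0 male range or just under it (Day 0 at 62, 77.9, 132 and 62.4 CPM).

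Shorter members had the larger differences in several comparisons. The median coding length of the 80 genes was 462 nt, from 138 nt in Rpl41 to 1257 nt in Rpl4. In males at Day 3, the 39 shorter members tested had a median log2 fold change of -1.15 with 15 called, and the 39 longer ones -0.86 with 11 called. With Day 0 mouse 3 left out they had -0.52 with 35 called and -0.41 with 26 called. In females at Day 3 the medians were -1.47 (4 called) and -0.90 (1 called), then -1.07 and -0.66 (0 called) once Day 0 mouse 3 was left out and -1.75 and -1.16 (38 and 32 called) once Day 0 mouse 4 was. Spearman's rho between coding length and log2 fold change, over 78 members that share the same 8 libraries, was 0.407 in males and 0.555 in females at Day 3. It was 0.378 and 0.556 at Day 2, and -0.157 and 0.557 at Day 5, in males and females. Between the sexes it was 0.492 at Day 0, 0.0005 at Day 2, 0.00573 at Day 3 and -0.592 at Day 5 (77 members). The values near 0 are those of the sexes at Day 2 and Day 3. With male Day 0 mouse 3 left out, rho in males was 0.235 at Day 2, 0.211 at Day 3 and -0.481 at Day 5. In females without their mouse 3 it was 0.611, 0.57 and 0.631, and between the sexes at Day 0 it was then 0.219. With the library labelled male Day 5 mouse 1 left out, it was -0.202 in males at Day 5 and -0.564 between the sexes. These correlations are descriptions across genes, which are not independent replicates.

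**Figure D5:**
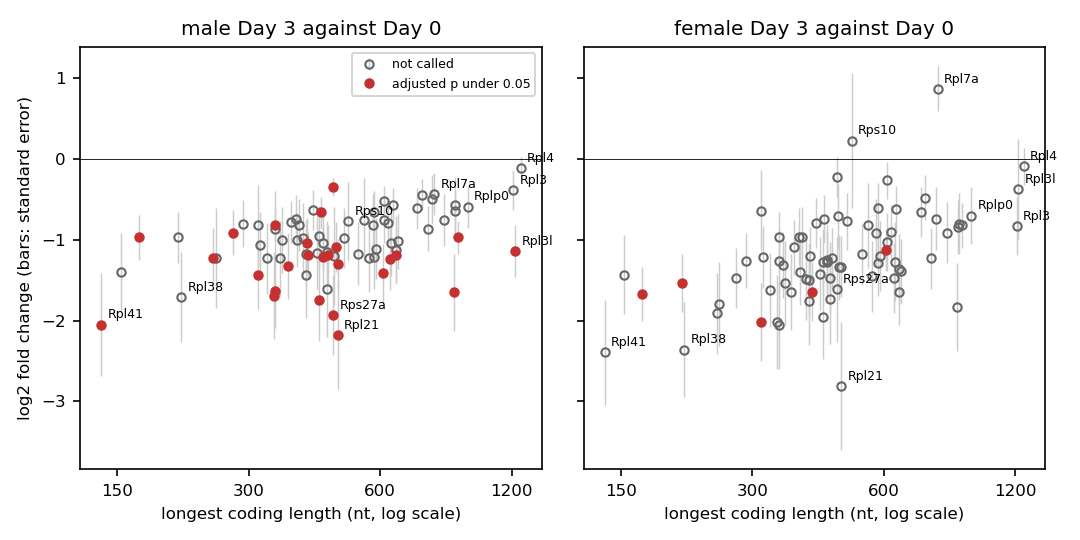
Log2 fold change of each member at Day 3 against Day 0, for males and females, against its longest coding sequence in nt on a log axis. Bars are the SE, and red points passed an adjusted p under 0.05 (edgeR). Rpl41 with 138 nt lies near the bottom of both panels and Rpl4 with 1257 nt near 0, with Spearman's rho of 0.407 and 0.555.

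Members with a C-led tract at the annotated start were set beside the rest. At Day 3 in males, the 13 with a tract had a median of -1.19 (from -1.71 to -0.44), of which 6 fell, and the 45 without had -0.98, of which 12 fell. With Day 0 mouse 3 left out the medians were -0.64 and -0.44, with 10 and 35 called. In females the medians were -1.64 and -1.20, with 1 and 2 called. Once Day 0 mouse 3 was left out they were -1.17 and -0.90 with 0 called, and once Day 0 mouse 4 was, -1.93 and -1.48 with 11 and 41 called in either direction. In the Day 3 comparison of the sexes the medians were -0.38 and -0.37. No test was run on these differences. Rpl28, Rpl35 and Rplp2 from the sequences above belong to the 13, while Rpl41 and Rpl21, with the largest falls, do not.

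At Day 3 the ribosomal protein genes were lower in males than in females. The median of the 78 members was -0.38 on the log2 scale (quartiles -0.44 and -0.31), 77 lay below 0, and 35 were called lower in males and 0 higher, beside 10.6% of all 16644 genes in each direction. The groups did not overlap for 15 members, all lower in males, beside 11.4% of all genes. The 35 comprised 21 of the large and 14 of the small subunit. No member differed by over 1.5 on the log2 scale. In 1 fit over all 8 groups, which takes its spread from all days, 0 members were called, beside 0.406% of all genes that were lower. DESeq2's Wald test called 49, beside 12.8%.

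Rpl7a had the largest of the called differences at Day 3, with males at 70.2, 54, 61.3 and 69.2 CPM and females at 92.5, 120, 135 and 116 CPM. All males were below all females (-0.89 ± 0.12, adjusted p = 0.00162, edgeR, and 0.0958 in 1 fit over all 8 groups). The limit on the reads of Rpl7a, given above, holds here too. Rplp1 was at 523, 485, 473 and 454 CPM in males and at 715, 575, 695 and 872 CPM in females, also without overlap (-0.59 ± 0.13, adjusted p = 0.0116, edgeR, and 0.786 in the fit over 8 groups). Rpl12, whose protein sits at the base of the stalk, was at 176, 151, 151 and 142 CPM in males and at 239, 173, 227 and 269 CPM in females, where female mouse 2 fell within the male range (-0.58 ± 0.14, adjusted p = 0.0164, edgeR). Of the X-linked members, Rpl36a (-0.53, adjusted p = 0.03, edgeR) and Rps4x (-0.43, adjusted p = 0.0454) were lower in males, and Rpl39 (-0.48, adjusted p = 0.0814) and Rpl10 (-0.32, adjusted p = 0.0516) did not pass.

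Female Day 3 mouse 2 was the lowest of its group for many members, such as Rps4x at 332 CPM against 483 to 501 CPM in the other 3, and it was also the female with Cdkn1a near the Day 0 range. Without it 69 members were lower in males, beside 17.5% of all genes. Without male Day 3 mouse 3, 2 members were called, beside 5.45% of all genes that were lower, and without any other Day 3 library between 4 and 24, beside 5.13 to 8.47%, with medians from -0.48 to -0.29 over the 8 fits. Cell markers differed between the same groups. In males 4 of 8 proximal tubule markers were higher. Lower in males were 4 of 4 collecting duct markers, with sums of 672 to 843 CPM in males and 908 to 1100 CPM in females, 3 of 4 markers of the thick ascending limb (2160 to 3200 and 2310 to 5140 CPM) and 4 of 5 adipocyte markers (317 to 418 and 501 to 883 CPM). Of 4 hepatocyte markers 2 were lower and 1 higher, 1 of 2 skeletal muscle genes tested was lower, 1 of 10 leukocyte markers tested, Ptprc, was higher (0.78, adjusted p = 0.0191, edgeR; sums of 193 to 220 and 151 to 280 CPM), and lower in males was the injury gene Havcr1 (-3.60, adjusted p = 0.0252, edgeR). The summed adrenal cortex markers were 4.79 to 58.2 CPM in males and 27.2 to 2120 CPM in females, with 0 of 4 called. The erythroid markers summed to 1.11 to 3.07 CPM in males and 4.22 to 110 CPM in females, and those tested were not called. Malat1 was at 1760 to 2230 CPM in males and 734 to 1250 CPM in females. The part of these values in the difference was not tested.

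On the other days no member was called between the sexes. At Day 0 the median was -0.63 (quartiles -0.73 and -0.47), but -0.25 once mouse 3 of the females was left out and -1.11 once mouse 3 of the males was, with 0 of 78 called, beside 0.217% of all 16117 genes that were lower in males and 0.23% that were higher. At an unadjusted p under 0.05 the count was 0, beside 4.1% of all genes that were lower, with 0 by DESeq2, beside 1.04%. Limma voom, which gives libraries unequal weights, called 66 lower and 1 higher, beside 12.3 and 12.4% of all genes. The Day 0 groups overlapped for every member, beside 3.23% of all genes that were lower without overlap, as female mouse 4 was near the 3 lower males and male mouse 3 among the females. At Day 2 the median was -0.29, with 0 called, beside 0.577% of all 16632 genes that were lower and 0.902% that were higher. Before adjustment 2 were lower at a p under 0.05, beside 6.72% of all genes, with 0 by DESeq2 (1.97% of all genes) and 18 lower by limma voom (9.08%), and 3 members were lower without overlap, beside 3.91% of all genes. At Day 5 the median of 77 members was -0.02, with 0 called, beside 0.0606% of all 14860 genes that were lower and 0.242% that were higher. The unadjusted p was under 0.05 for 1 lower member, beside 10.1% of all genes, with 1 by DESeq2 (2.69% of all genes lower) and 8 by limma voom, 5 lower and 3 higher (15.9 and 14.8% of all genes). Without the library labelled male Day 5 mouse 1, 1 member was lower and 1 higher, beside 10.4 and 8.65% of all genes, and the median was 0.14. The 2 members without overlap at Day 5, beside 3.41% of all genes, were Rpl7a (-1.0 ± 0.18, adjusted p = 0.0501, edgeR) and Rps2 (-0.47 ± 0.25, adjusted p = 0.309). With that library left out, Rpl7a was called (-1.03, adjusted p = 0.00392, edgeR) and Rps2 was at -0.40. Both values of Rpl7a carry the limit on its reads.

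Whether the change from Day 0 differed between the sexes was tested as an interaction, male change minus female change. The medians of the members were 0.36 at Day 2, 0.25 at Day 3 and 0.56 at Day 5, and 0 of 78 members passed on each day (edgeR), beside 0, 0.0113 and 0.18% of all genes in either direction. At an unadjusted p under 0.05, 0 members passed at Day 2, 1 was lower at Day 3, and 1 was lower at Day 5, beside 1.36, 3.31 and 6.58% of all genes that were lower. At Day 5, 3 were higher, beside 7.9% of all genes. DESeq2's Wald test called 1 lower at Day 5 (1.93% of all genes). Limma voom called 10 higher at Day 2 (5.23% of all genes), 10 higher and 1 lower at Day 3 (6.01 and 5.76%), and 49 higher and 1 lower at Day 5 (15.6 and 16.3%). With the library labelled male Day 5 mouse 1 left out, 1 was lower at Day 5, beside 5.08%. The lower one at Day 3 was Rpl7a (-1.26 ± 0.39, adjusted p = 0.524, edgeR), which had -1.37 ± 0.41 at Day 5 (adjusted p = 0.142). Its reads have the limit given above. With female Day 0 mouse 3 left out the medians were 0.04, -0.06 and 0.24 on the 3 days, and with male Day 0 mouse 3 left out they were 0.84, 0.78 and 1.09.

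Across the 32 libraries the members moved as a block. The log2 CPM of a member correlated with the median of the other members at a median Pearson's r of 0.944, with 56 members over 0.9, highest in Rpl13 and Rpl27a at 0.991. Only 3 of the 78 were under 0.5, namely Rpl7a at -0.185, Rps10 at -0.059 and Rpl3l at 0.291, followed by Rpl23a at 0.601 and Rpl4 at 0.617. These values describe libraries that share sex, day and the 2 high Day 0 libraries. Rps10 and Rpl3l are among the members with the fewest counts, and the limit on the reads of Rpl7a holds here too.

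The rest of the ribosome pathway was read from lists of its genes. The mitochondrial ribosomal proteins, which build the ribosome of the mitochondrion from nuclear genes, were the nearest to the cytosolic ones. In males at Day 3, 61 of 77 tested fell and 0 rose, beside 14 and 10.7% of all genes, with a median of -0.93, led by Mrps21 (-1.69), Mrpl28 (-1.63) and Mrps11 (-1.61), whose adjusted p were 0.0277, 0.0219 and 0.0278 (edgeR). Without male Day 0 mouse 3, 71 fell with a median of -0.66, beside 20.3%. In females at Day 3, 18 fell with a median of -0.93, beside 3.37% of all genes, then 0 without Day 0 mouse 3, beside 0%, and 68 without Day 0 mouse 4, beside 20.4%. In the Day 3 comparison of the sexes 17 were lower in males, beside 10.6% of all genes, with a median of -0.13 against -0.38 for the cytosolic members.

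The other lists are read against the 14% of all genes that fell and the 10.7% that rose in males at Day 3. Of 25 genes of the translation machinery whose mRNAs carry a TOP tract, 3 rose and 3 fell in males at Day 3, with a median of -0.35, the largest being Eif3k (-0.82, adjusted p = 0.0453, edgeR, and -0.47 without Day 0 mouse 3), Eif4b (0.66, 0.0279) and Eef1g (-0.64, 0.0169). Without male Day 0 mouse 3 the counts were 4 and 8, beside 18.5 and 20.3% of all genes, with a median of -0.10. Of 36 genes of ribosome biogenesis 6 fell and 0 rose (median -0.10), among them Nhp2 of the box H/ACA particle (-1.78, adjusted p = 0.0355, edgeR, and -0.97 without Day 0 mouse 3), Mrto4 (-0.94, 0.0234) and Nop10 (-0.71, 0.0195). Of 11 genes tested of RNA polymerase I and its factors, Taf1d (0.71, adjusted p = 0.0288, edgeR) and Rrn3 (0.57, 0.0293) rose and Polr1d (-0.94, 0.0447, and -0.56 without Day 0 mouse 3) fell. Of 18 regulators 3 rose and 3 fell, including the translation repressor Eif4ebp1 (-1.14, adjusted p = 0.0208, edgeR). Mtor was not called at Day 3 in males (0.31, adjusted p = 0.244, edgeR), fell at Day 5 (-1.27, adjusted p = 0.0223, or -1.6 with the library labelled mouse 1 left out) and was higher in males than in females at Day 3 (0.67, adjusted p = 0.00823). Of 10 snoRNA host genes tested 1 rose. In females at Day 3, where 3.37% of all genes fell and 1.22% rose, Snhg20 of the snoRNA hosts fell (-1.34, adjusted p = 0.0489, edgeR), Mdm2 of the regulators rose (1.95, 0.0488), and the translation, biogenesis and polymerase I lists had 0 genes called. As given above, the number of calls over all genes in this comparison turned on Day 0 mice 3 and 4. A list with 0 called is therefore not shown to be unchanged.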

How the data were processed

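Kidney RNA was sequenced by the authors as paired-end reads of 150 bp and aligned to GRCm38, while the submitters' processing notes name GRCm39 (mm39), HTSeq and DESeq2, and versions are not given in the sources used here. Start and end of 78 of the 80 members equal a GRCm38 annotation. The authors deposited raw counts per gene, which were used for all tests, and FPKM, which were used only to check the counts. Gene lengths, names and types came from the same deposited table.

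Genes named mt- were left out before library sizes and TMM factors were set. Each comparison was fitted on its own 2 groups (interactions on 4) with the filterByExpr filter and edgeR's quasi-likelihood test (edgeR 4.0.16, R 4.3.3) with Benjamini-Hochberg adjustment over all genes tested, and called at an adjusted p under 0.05. Log2 fold changes are given with their SE. Script steps were tested on simulated data. Groups and mouse numbers came from the labels. The labels do not say more of how replicates were taken, so p-values measure the spread between these libraries. No pair of libraries agreed within sampling noise (lowest chi-square per degree of freedom 6.16). Counting limits cover counting error only.

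The alternatives were DESeq2 1.42.0 (its size factors and its Wald test), limma 3.58.1 voom with quality weights, other filters, mt- genes kept, scaling without the members, 1 fit over all 8 groups, a replicate block and each library left out. The members and lists were chosen with earlier results of these data known. Named were the 3 called members with the largest change in each direction per comparison, the stalk, Mdm2-binding, X-linked and qPCR reference members, Rpsa, paralog pairs, the 3 highest and lowest per length, and up to 3 genes per other list. Further genes, among them Rps2, Rps15, Rps28, Rpl4, Rpl7a in females and those with printed start sites, were chosen after their values were seen. Start-site sequences are from RefSeq (GRCm38.p6).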

Additional observations from a re-analysis of the deposited data

Results flagged for a closer look

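In 27 of the 264 groups of 4 mice checked (10.2%), 1 mouse lay far from the other 3, where chance gives about 1 in 20 groups. Of these, 17 were male Day 0 mouse 3, always as the highest, and they are not independent of each other. Its share of counts on the family was 5.08%, against 2.31 to 2.41% in the other males of Day 0. For the stalk it held 1900 CPM of Rplp0, 3620 of Rplp1 and 1110 of Rplp2, where the others had at most 1030, 838 and 318 CPM. For further large-subunit genes it held 1170 CPM of Rpl11, 566 of Rpl12, 61.7 of Rpl13a, 381 of Rpl21, 406 of Rpl22, 912 of Rpl36, 308 of Rpl36a, 580 of Rpl39 and 4390 of Rpl41. For the small subunit it held 2070 CPM of Rps15, 1210 of Rps18, 661 of Rps27l and 3490 of Rpsa.

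The other cases were spread over 7 libraries. Female Day 5 mouse 3 was high for Rpl28 (707 CPM against 435 to 460), Rplp1 (1690 against 887 to 1010) and Rpsa (1640 against 902 to 1000). Female Day 2 mouse 1 was high for Rpl28 (653 CPM against 280 to 343) and female Day 2 mouse 3 for Rpl21 (92.1 against 29.7 to 36.8). Female Day 3 mouse 2 was low for Rps4x (332 CPM against 483 to 501). Male Day 3 mouse 1 was high for Rplp0 (924 CPM against 781 to 805) and male Day 3 mouse 2 for Rps27a (183 against 77.4 to 90.4). Rpl39l was at 0.141 CPM in female Day 2 mouse 1 and 0.0449 CPM in male Day 2 mouse 2, with 0 in the other mice of each group, which is within the limit that a count of 0 allows.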

How the results depend on the processing

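In 1 fit over all 8 groups the counts of called members were 12 (male Day 2), 45 (male Day 3) and 2 (male Day 5), beside 7.17, 11 and 16% of all genes that were lower. In females they were 61, 63 and 18, beside 13, 14.3 and 8.48%, between the sexes 0 at Day 3 and 1 at Day 5, beside 0.406 and 3.9%, and for the Day 5 interaction 2, 1 lower and 1 higher, beside 2.96 and 4.15%. DESeq2's Wald test gave 12, 51 and 2 in males (10.1, 18.8 and 14% of all genes lower), 45, 55 and 4 in females (8.79, 14 and 2.87%), 1 between the sexes at Day 5 (2.69%) and 1 for the Day 5 interaction (1.93%). Voom with quality weights gave 57, 69 and 43 in males (23.5, 28.9 and 27.4%), 70, 70 and 12 in females (23.6, 24.2 and 8.99%), 67, 18, 69 and 8 between the sexes at Day 0, 2, 3 and 5 (12.3, 9.08, 22.9 and 15.9%), and 10, 11 and 50 for the interactions (4.62, 5.76 and 16.3%). Of the 43 at male Day 5, 37 were higher and 6 lower, beside 28.2 and 27.4% of all genes, and most of the voom calls of the interactions were higher, beside 5.23, 6.01 and 15.6%. It reversed the medians of male Day 5 (0.33) and of the sexes at Day 5 (0.08), and gave -0.41 and -0.53 in males at Day 2 and Day 3, -0.96 for the sexes at Day 0, and 0.68, 0.57 and 1.0 for the interactions. Without the filter the counts were 0, 10 and 2 in males (0.443, 4.51 and 4.36% of all genes lower), 16 and 8 in females at Day 2 and Day 3 (2.44 and 2.32%), and 1 between the sexes at Day 5 (0.385%). With at least 10 counts in every library they were 7 and 14 in females at Day 2 and Day 3 (4.09 and 8.29%), and DESeq2's size factors gave 1 in females at Day 3 (1.83%). The threshold of 1.5 left 7 in males at Day 3 (3.8% in either direction) and 0 between the sexes at Day 3. The cause of these differences was not tested.

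Mouse numbers were not taken to pair the libraries, since in no comparison did every pair of same-numbered mice correlate over 0.1. Between the sexes at Day 0 the pairs of mice 1 to 4 correlated at 0.37, -0.13, 0.61 and 0.56. With the mouse number as a replicate block, 0 members were called in males at Day 2 and Day 3 and in females at Day 3, beside 0.0125, 0.208 and 0% of all genes that were lower, and 20 between the sexes at Day 3, beside 8.59%. Leaving out 1 library at a time gave 0 to 3 (male Day 2), 0 to 61 (male Day 3), 0 to 3 (male Day 5), 0 to 68, 0 to 70 and 0 to 24 (females), 2 to 69 (sexes at Day 3), 0 to 2 (sexes at Day 5) and 0 to 1 (interaction at Day 5). Among these fits the median lay between -0.35 and 0.36 in male Day 5 (above 0 without male Day 0 mouse 3), between -0.16 and 0.20 for the sexes at Day 5 (above 0 without female Day 5 mouse 3, or at 0.14 without male Day 5 mouse 1), and between -0.06 and 0.78 for the Day 3 interaction (below 0 without female Day 0 mouse 3). Leaving out both Day 0 libraries of mouse 3, chosen after seeing the data, gave 0 calls for each interaction. With mt- genes in the denominator the mean share was 2.24% in females at Day 5, 1.70% in males at Day 3 and 0.968% in males at Day 5. Groups of 4 mice and the low counts of the Day 5 males limit what could be detected.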
